A study of Mus musculus with 656 samples.

Results

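The nuclear-encoded respiratory chain genes are the genes in the nucleus for subunits of mitochondrial complexes I to IV and of the ATP synthase, together with assembly factors that share their symbols. They were taken by symbol, as protein-coding genes whose names begin with Nduf, Sdha, Sdhb, Sdhc, Sdhd, Uqcr, Cox4 to Cox8 or Atp5. The rule found 96 of the 22070 genes counted, and 88 of the 96 passed the filter on low counts. RNA from 3T3 cells, an established mouse embryonic fibroblast line grown in glucose-containing medium, was measured by TagSeq, which sequences the polyadenylated 3' ends of transcripts. Before stimulation the cells spent 1 hour with 0, 25, 50 or 100 µM of SC-514, a small molecule that blocks IKKβ, the kinase that starts NF-κB signalling. A cytokine was then added, either IL-1β (1 ng/ml) or TNF-α (10 ng/ml), and RNA was taken after 15, 30, 60, 120 or 360 min. The 40 stimulated groups and 1 group with neither stimulus nor inhibitor had 4 libraries each, and the samples carried no transgene or other genetic change in their labels. No group received SC-514 alone, the labels do not name the vehicle at 0 µM, and the data come from 1 cell line.

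The respiratory chain sits in the inner mitochondrial membrane. Complexes I and II feed electrons from NADH and succinate to ubiquinone, complex III passes them to cytochrome c, and complex IV passes them to oxygen. Complexes I, III and IV pump protons, and the ATP synthase makes ATP as the protons flow back. A small set of core subunits is encoded by mitochondrial DNA, and all other subunits and assembly factors by nuclear genes, many of whose promoters bind NRF-1 or the ETS-family factor GABP (NRF-2). Cultured fibroblasts make ATP by both glycolysis and respiration.

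Library totals were 928906 to 2469454 counts in 162 libraries, with a median of 1292522. Another 2 libraries, 1 labelled IL-1β at 50 µM and 30 min and 1 labelled TNF-α at 50 µM and 120 min, held 12191 and 3839 counts. Both stayed in the fit and are left out of the plots and of the summed shares. The column prefix that the descriptions give to libraries labelled IL-1β is the one that the titles give to TNF-α, so the text speaks of libraries by their label, IL-1β or TNF-α, throughout. The libraries of the 2 labels and the unstimulated libraries carry different column prefixes, so a difference between stimuli and a difference between sets of libraries cannot be told apart. The labels do not say whether a group's 4 libraries had separate cultures, and the p-values therefore rest on a spread among libraries that may be technical. All 9 fibroblast markers were detected, at a summed 6928 to 11147 CPM, where CPM is the count per 1000000 counts of the TMM-scaled library. Leukocyte markers summed to 11.4 to 56.1 CPM, endothelial markers to 1.55 to 27.8 CPM, epithelial markers to 0 to 5.22 CPM and adipocyte markers to 68.3 to 233 CPM.

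The CPM values are not divided by transcript length, so levels of different genes are not compared. Complex I contributed 38 subunit genes, of which 37 were tested, and 8 assembly factor genes, all tested. Complex II contributed 8 genes, 4 for subunits and 4 for assembly factors. The numbers tested of those found were 7 of 8 for complex III, 11 of 17 for complex IV and 17 of 17 for the ATP synthase. In unstimulated cells Ndufs1, an iron-sulfur subunit through which complex I passes electrons from NADH, averaged 99.3 ± 7.21 CPM, and Ndufb8, an accessory subunit of the membrane arm, averaged 347 ± 22.6 CPM (SD, n = 4 each). Sdha, the flavoprotein that oxidises succinate, averaged 177 ± 12.3 CPM, and its iron-sulfur partner Sdhb 138 ± 11.8 CPM. Uqcrfs1, the Rieske iron-sulfur protein of complex III, averaged 175 ± 10.0 CPM. Cox4i1, the common form of complex IV subunit 4, averaged 473 ± 39.8 CPM, and Cox7a2, the common form of subunit 7a, 443 ± 15.0 CPM. Atp5a1 and Atp5b, which encode the catalytic head of the ATP synthase, averaged 551 ± 22.0 and 1116 ± 77.5 CPM.

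The 8 members below the filter were mostly tissue-restricted forms. Cox7a1, the heart and muscle form of subunit 7a, averaged 1.98 ± 0.936 CPM in unstimulated cells, and Cox6a2, the muscle form of subunit 6a, 1.93 ± 1.66 CPM. A count of 3 is worth 1.21 to 3.23 CPM in all but the shallow libraries, so both values stand for a few counts. Cox4i2, the hypoxia-linked form of subunit 4, had 32 counts over all libraries, Ndufa4l2 had 54, Cox6b2 had 79, Cox7b2 had 7 and Cox8b had 2. Uqcrc1, a core subunit of complex III that all respiring cells use, had 12 counts over all libraries. Whether the counting missed its 3' end was not tested, and no change is reported for it. Cox8c, which also fits the rule, is not in the count table.

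Promoters of some members that were lower with the inhibitor are shown first, since many respiratory chain promoters bind NRF-1 or GABP. Of these, Atp5k was lower with the inhibitor only in libraries labelled IL-1β. The windows of members that were higher with it, such as Cox7a2l, Ndufaf7, Ndufa6 and Ndufv2, are not printed. A window from 250 bases before to 50 bases after the start of the gene was available from RefSeq (GRCm38.p6) for 78 members. Both strands were searched for the palindromic NRF-1 motif, which is GCGCA followed directly by its reverse complement TGCGC, for CCGGAAG, the core of the ETS motif, and for CACGTG, the E-box that bHLH factors bind. Capitals mark each match below, which for the ETS core on the other strand reads CTTCCGG, and no printed match overlaps another. The windows of Ndufaf4 (chr4:24897833-24898132, plus strand), Atp5k (chr5:108434350-108434649, minus strand), Cox6b1 (chr7:30626065-30626364, minus strand) and Atp5g3 (chr2:73911277-73911576, minus strand) are written in the direction of the gene.
Ndufaf4: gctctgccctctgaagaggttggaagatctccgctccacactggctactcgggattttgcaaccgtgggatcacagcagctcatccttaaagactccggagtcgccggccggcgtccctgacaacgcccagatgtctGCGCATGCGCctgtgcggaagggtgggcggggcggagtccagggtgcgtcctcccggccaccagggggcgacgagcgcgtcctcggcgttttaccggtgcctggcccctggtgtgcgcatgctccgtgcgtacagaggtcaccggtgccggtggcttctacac
Atp5k: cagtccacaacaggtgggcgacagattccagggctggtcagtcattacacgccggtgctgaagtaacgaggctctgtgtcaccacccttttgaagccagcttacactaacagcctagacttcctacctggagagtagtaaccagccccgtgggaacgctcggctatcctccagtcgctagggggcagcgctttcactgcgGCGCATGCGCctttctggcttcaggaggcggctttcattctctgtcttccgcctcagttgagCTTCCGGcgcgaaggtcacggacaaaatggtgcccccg
Cox6b1: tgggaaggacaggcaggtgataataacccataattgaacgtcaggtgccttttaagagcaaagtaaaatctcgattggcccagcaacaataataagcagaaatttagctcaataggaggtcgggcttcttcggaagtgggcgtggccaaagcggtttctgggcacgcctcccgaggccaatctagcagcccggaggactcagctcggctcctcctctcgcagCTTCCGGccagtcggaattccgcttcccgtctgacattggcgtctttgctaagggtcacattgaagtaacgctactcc
Atp5g3: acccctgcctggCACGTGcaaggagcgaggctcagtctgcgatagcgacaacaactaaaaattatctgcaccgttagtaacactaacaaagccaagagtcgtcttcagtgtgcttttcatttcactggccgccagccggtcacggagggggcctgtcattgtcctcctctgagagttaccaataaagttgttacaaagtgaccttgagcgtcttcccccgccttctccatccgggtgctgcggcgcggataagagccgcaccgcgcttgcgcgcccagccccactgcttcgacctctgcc
The NRF-1 motif stood in the windows of 7 of 78 members, or 8.97%, against 1.07% of all genes with a window, with all windows of a gene counted as 1. The ETS core stood in 21 members, or 26.9%, against 9.93% of all genes, and the E-box in 5 members, or 6.41%, against 8.09%. The windows of Cox7a2l and Cox7c, which are described later, held none of these letters. Whether any of these motifs goes with a rise or a fall under the inhibitor was not tested.

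Members together took 1.97% to 2.43% of the counts of a library, with a median of 2.25% over 162 libraries. With the libraries divided into 3 classes of 54 by total count, the medians were 2.28%, 2.24% and 2.22% from the lowest to the highest totals. Complex I made up 0.675% to 0.903% of counts and the ATP synthase 0.578% to 0.702%. After 60 min with no inhibitor the summed share was 2.06% ± 0.0469 in libraries labelled TNF-α, against 2.28% ± 0.111 in unstimulated libraries (SD, n = 4 each), and after 360 min it was 2.07% ± 0.0637 in libraries labelled IL-1β. These were the 2 of 10 stimulus groups without overlap with the unstimulated group, and the ratios over all 10 were 0.907 to 1.01. As a share of the TMM-scaled library size all 10 stimulus groups overlapped with the unstimulated group, the ratios were 0.958 to 1.04, and 3 of them lay above 1. With SC-514 at 100 µM the share was 1.02 to 1.10 times that at 0 µM in the 10 pairs of groups, which share no library, and the groups did not overlap in 7 of 10. On the TMM-scaled library size the same ratios were 0.958 to 1.07, 0 of 10 pairs lay apart with 100 µM above 0 µM, and 1 lay apart with 100 µM below, that of TNF-α at 15 min. The ratio was also below 1 for TNF-α at 360 min, so both the separation and, at these times, the direction depend on the scaling.

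**Figure D1:**
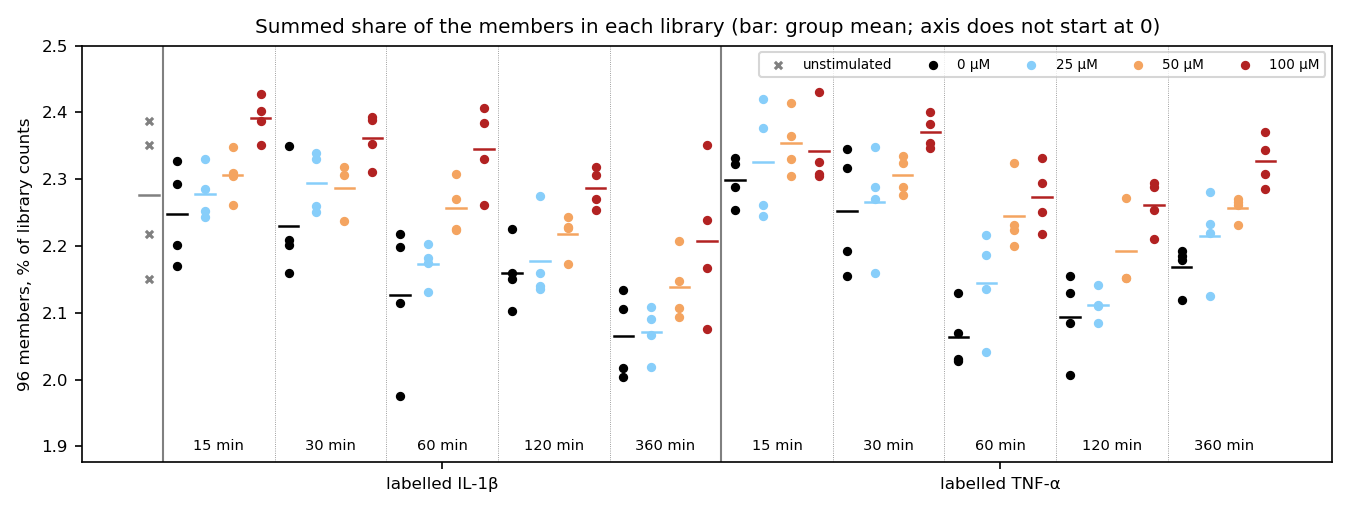
Summed share of all members in the total counts of each library, in percent (vertical axis, not starting at 0), by stimulus label, SC-514 concentration and time, with points for libraries and the 2 shallow libraries left out. All libraries lie between 1.97% and 2.43%, and in 7 of 10 label and time pairs the 100 µM libraries lie wholly above the 0 µM libraries, while on the TMM-scaled library size 0 of 10 pairs do.

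Without inhibitor, each stimulated group was set against the unstimulated group as the common control. That group is labelled 0 min, and there was no unstimulated group at the later times. A response to the cytokine and a change with time in culture therefore cannot be told apart. Changes were few and mostly downward, and concerned Atp5k, Atp5e, Ndufv3 and Ndufa4. All 10 comparisons use the same 4 unstimulated libraries, so calls of a gene at several times or under both labels are not independent. A change was called at an edgeR adjusted p under 0.05 over all 10766 genes tested. In libraries labelled IL-1β, 0 members were higher and 0 lower at 15 min, against 0.121% of all genes higher and 0.0464% lower. The 30 min libraries had 0 higher and 2 lower (all genes 0.725% and 0.232%), and those of 60 min 0 and 3 (2.74% and 0.622%). After 120 min 1 member was higher and 2 lower (8.17% and 4.36%), and after 360 min 0 and 11 (12.3% and 9.40%). The 11 members lower at 360 min were 12.5% of those tested, against 9.40% of all genes.

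In libraries labelled TNF-α, no member was called at 15 min (all genes 0.0836% higher and 0.102% lower), at 30 min (0.557% and 0.102%) or at 360 min (3.62% and 1.80%). The counts were 0 higher and 5 lower after 60 min (4.15% and 1.25%) and 0 higher and 6 lower after 120 min (9.14% and 5.11%). Where edgeR called none, the members at an unadjusted p under 0.05 were 12 higher and 6 lower for IL-1β at 15 min, and for TNF-α 9 higher and 0 lower at 15 min, 3 higher and 3 lower at 30 min, and 3 higher and 5 lower at 360 min. All genes were not counted at that unadjusted threshold, so whether members stood out from them there is not known. DESeq2 called 1 member for IL-1β at 15 min and 0 for TNF-α at 15, 30 and 360 min. The median absolute log2 change of members was 0.06 to 0.12 over the 10 stimulus comparisons, against 0.13 to 0.22 for all genes. For all genes it was already 0.13 for IL-1β and 0.14 for TNF-α at 15 min, where at most 0.121% were called in either direction. It thus holds counting error as well as response, and members and all genes were not matched for count level.

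Atp5k, which encodes subunit e at the dimer interface of the ATP synthase, had, for the label IL-1β at 360 min, 389.7, 358, 324 and 392 CPM after the stimulus, against 414, 543, 440.4 and 499.9 CPM in unstimulated cells. All 4 stimulated libraries were below all 4 unstimulated ones (log2 change -0.37 ± 0.07 (SE), edgeR adjusted p = 4.86e-06). The change of Atp5k was called at 30, 60, 120 and 360 min for IL-1β, and for TNF-α at 60 min (-0.27 in log2), where the groups overlapped. Atp5e, the epsilon subunit of the central stalk, had 362, 376, 382 and 404 CPM after the stimulus, against 421, 504, 483 and 513.6 CPM in unstimulated cells, with no overlap (log2 change -0.33 ± 0.06 (SE), edgeR adjusted p = 1.12e-05). It was also called at 60 and 120 min, where the groups overlapped.

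Ndufv3, an accessory subunit of the NADH-oxidising module of complex I, had, for the label IL-1β at 360 min, 178, 181, 179.9 and 195 CPM after the stimulus, against 241, 269, 243 and 256 CPM in unstimulated cells. The groups did not overlap (log2 change -0.46 ± 0.09 (SE), edgeR adjusted p = 2.60e-05). Ndufv3 was also lower for IL-1β at 30 and 60 min and for TNF-α at 60 min, with log2 changes of -0.34, -0.30 and -0.33 and no overlap. Ndufs7, an iron-sulfur subunit next to the ubiquinone site, fell by 0.36 in log2 for IL-1β at 360 min (SE 0.09). Ndufa4, which copurifies with complex IV as well as complex I, had, for TNF-α at 60 min, 354, 360.1, 378 and 364 CPM after the stimulus, against 375, 534, 415 and 443 CPM in unstimulated cells. The lowest unstimulated library lay within the stimulated range (log2 change -0.28 ± 0.06 (SE), edgeR adjusted p = 0.00114). Uqcrh, the hinge protein of complex III, averaged 175 ± 14.1 CPM for TNF-α at 120 min and 217 ± 30.4 CPM in unstimulated cells (log2 -0.31), and Atp5l and Cox7b changed by -0.30 and -0.19 at that time. Atp5mpl, a small proteolipid of the ATP synthase, changed by -0.24 for TNF-α at 60 min. Uqcrc2, a core subunit of complex III, was the 1 member called higher, and for IL-1β at 120 min had 172, 206, 193 and 207 CPM after the stimulus, against 172, 172, 143 and 152 CPM in unstimulated cells. Its lowest stimulated library was about level with the highest unstimulated ones (log2 change 0.28 ± 0.09 (SE), edgeR adjusted p = 0.0135).

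SC-514 at 100 µM, set against 0 µM within each label and time, answers whether the inhibitor moved the members under a cytokine. Under both labels Ndufaf4 and Atp5g3 were mostly lower, and Ndufaf7 and the supercomplex factor Cox7a2l mostly higher. Subunits of complex I were more often higher, chiefly under IL-1β. In libraries labelled IL-1β 13 members were higher and 10 lower at 15 min, with 11.2% of all genes higher and 13.5% lower. After 30 min 12 were higher and 6 lower (all genes 10.0% and 12.5%). The counts after 60 min were 22 higher and 5 lower (11.5% and 14.4%), after 120 min 24 higher and 12 lower (14.3% and 16.2%), and after 360 min 12 higher and 9 lower (13.9% and 15.7%). The 22 and 24 members higher at 60 and 120 min were 25.0% and 27.3% of those tested. In libraries labelled TNF-α 2 members were higher and 14 lower at 15 min (all genes 8.99% and 13.2%) and 1 and 3 at 30 min (7.12% and 10.8%). After 60 min 12 members were higher and 6 lower (8.32% and 13.6%), after 120 min 11 were higher and 5 lower (11.5% and 15.0%), and after 360 min 8 were higher and 10 lower (11.4% and 15.4%).

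The changes were small. The median absolute log2 change of members was 0.09 to 0.17 over the 10 comparisons, against 0.21 to 0.28 for all genes, and the median signed change was -0.02 to 0.09, against 0.00 to 0.04 for all genes. Members and all genes were not matched for count level, so the gap in absolute change does not measure how strongly members responded. The shares called, here and in the other comparisons, carry the same limit. Over the 10 comparisons 117 of 880 member results were called higher and 80 lower, or 13.3% and 9.09%, while of all gene results 10.8% were higher and 14.0% lower. Of the 88 members, 69 were called at least once, or 78.4%, against 70.3% of all genes. In at least 5 of the 10 comparisons and 1 direction 13 members were called, or 14.8%, against 19.4% of all genes. Higher in both labels and never lower were 14 members (all genes 15.3%), lower in both labels and never higher were 8 (all genes 19.5%), and 10 members were called in both directions.

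The labels share no library in these comparisons, so calls at the same time can be set side by side. Of all genes called for IL-1β, 50.7% to 56.0% were called in the same direction for TNF-α at the same time. Of those called for TNF-α, 56.5% to 63.8% were called alike for IL-1β. The members' shares were below these at all 5 times. Called members also had smaller changes than all called genes, with median absolute log2 changes of 0.23 to 0.36 against 0.51 to 0.58. The part of this in the lower shares was not tested. At 15 min 6 members were lower in both labels, or 26.1% of the 23 called for IL-1β and 37.5% of the 16 called for TNF-α. They were Atp5g2, Atp5g3, Cox6b1, Cox7b, Ndufaf4 and Uqcrh, while Atp5e, Cox7c and Ndufa1 were called in opposite directions. At 30 min Cox6b1 and Ndufaf4 were lower in both, or 11.1% of the 18 called for IL-1β and 50.0% of the 4 called for TNF-α. At 60 min 6 members were called alike in both, or 22.2% of 27 and 33.3% of 18, among them Atp5g3 and Ndufaf4 lower and Cox7a2l, Ndufa6 and Ndufaf7 higher, and Cox6c went in opposite directions. At 120 min Atp5g3 and Ndufaf4 were lower and Ndufa11, Ndufa12 and Ndufb11 higher in both, or 13.9% of 36 and 31.3% of 16. At 360 min Atp5b and Atp5f1 were lower and Cox7a2l, Ndufaf7, Ndufb6 and Ndufv2 higher in both, or 28.6% of 21 and 33.3% of 18. Ndufaf4 was thus called lower in both labels at each of the 4 times up to 120 min.

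The split between higher and lower depended on how libraries were scaled. RLE size factors estimated with the 2 shallow libraries gave 30 higher and 6 lower, 20 and 3, and 26 and 3 for IL-1β at 15, 30 and 360 min. For TNF-α at 15, 30, 60, 120 and 360 min they gave 8 and 5, 9 and 1, 30 and 1, 24 and 2, and 27 and 0, where TMM factors gave more lower than higher members at 15, 30 and 360 min. These factors moved all genes upward, with a median log2 change of all genes of 0.04 to 0.14 over the 10 comparisons (0.12 for IL-1β and 0.14 for TNF-α at 360 min), against 0.00 to 0.04 with TMM factors, and they called 15.4% of all gene results higher and 11.2% lower. For TNF-α at 15, 30 and 360 min they called 14.4%, 9.41% and 22.4% of all genes higher and 9.27%, 9.32% and 10.2% lower. RLE factors without the 2 shallow libraries gave 124 higher and 81 lower over the 10 comparisons, close to the 117 and 80 with TMM factors, and moved the split only for TNF-α at 30 min, to 2 and 3. For IL-1β at 120 min against unstimulated cells, RLE factors with the shallow libraries gave 1 higher and 5 lower. There they gave a median log2 change of all genes of -0.05, against -0.01 with TMM factors.

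**Figure D2:**
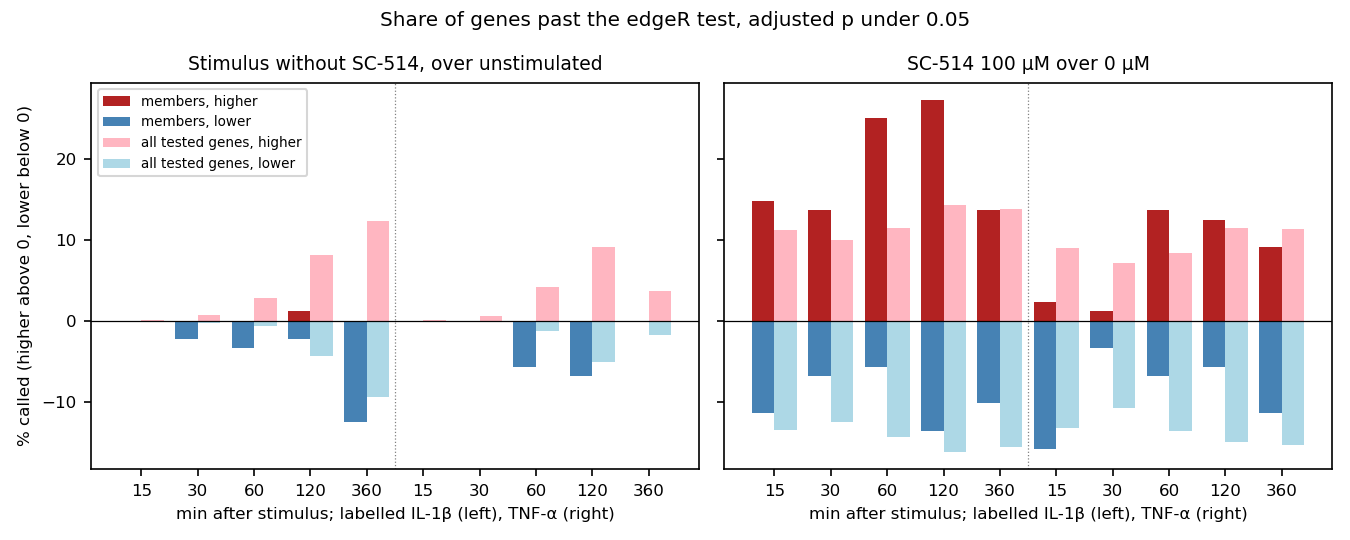
Percent of members (88 tested) and of all genes (10766 tested) called higher or lower at an edgeR adjusted p under 0.05, for each stimulus comparison and each comparison of 100 µM with 0 µM SC-514. Members called higher exceed the share of all genes most at 60 and 120 min in libraries labelled IL-1β, with 25.0% and 27.3%.

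**Figure D3:**
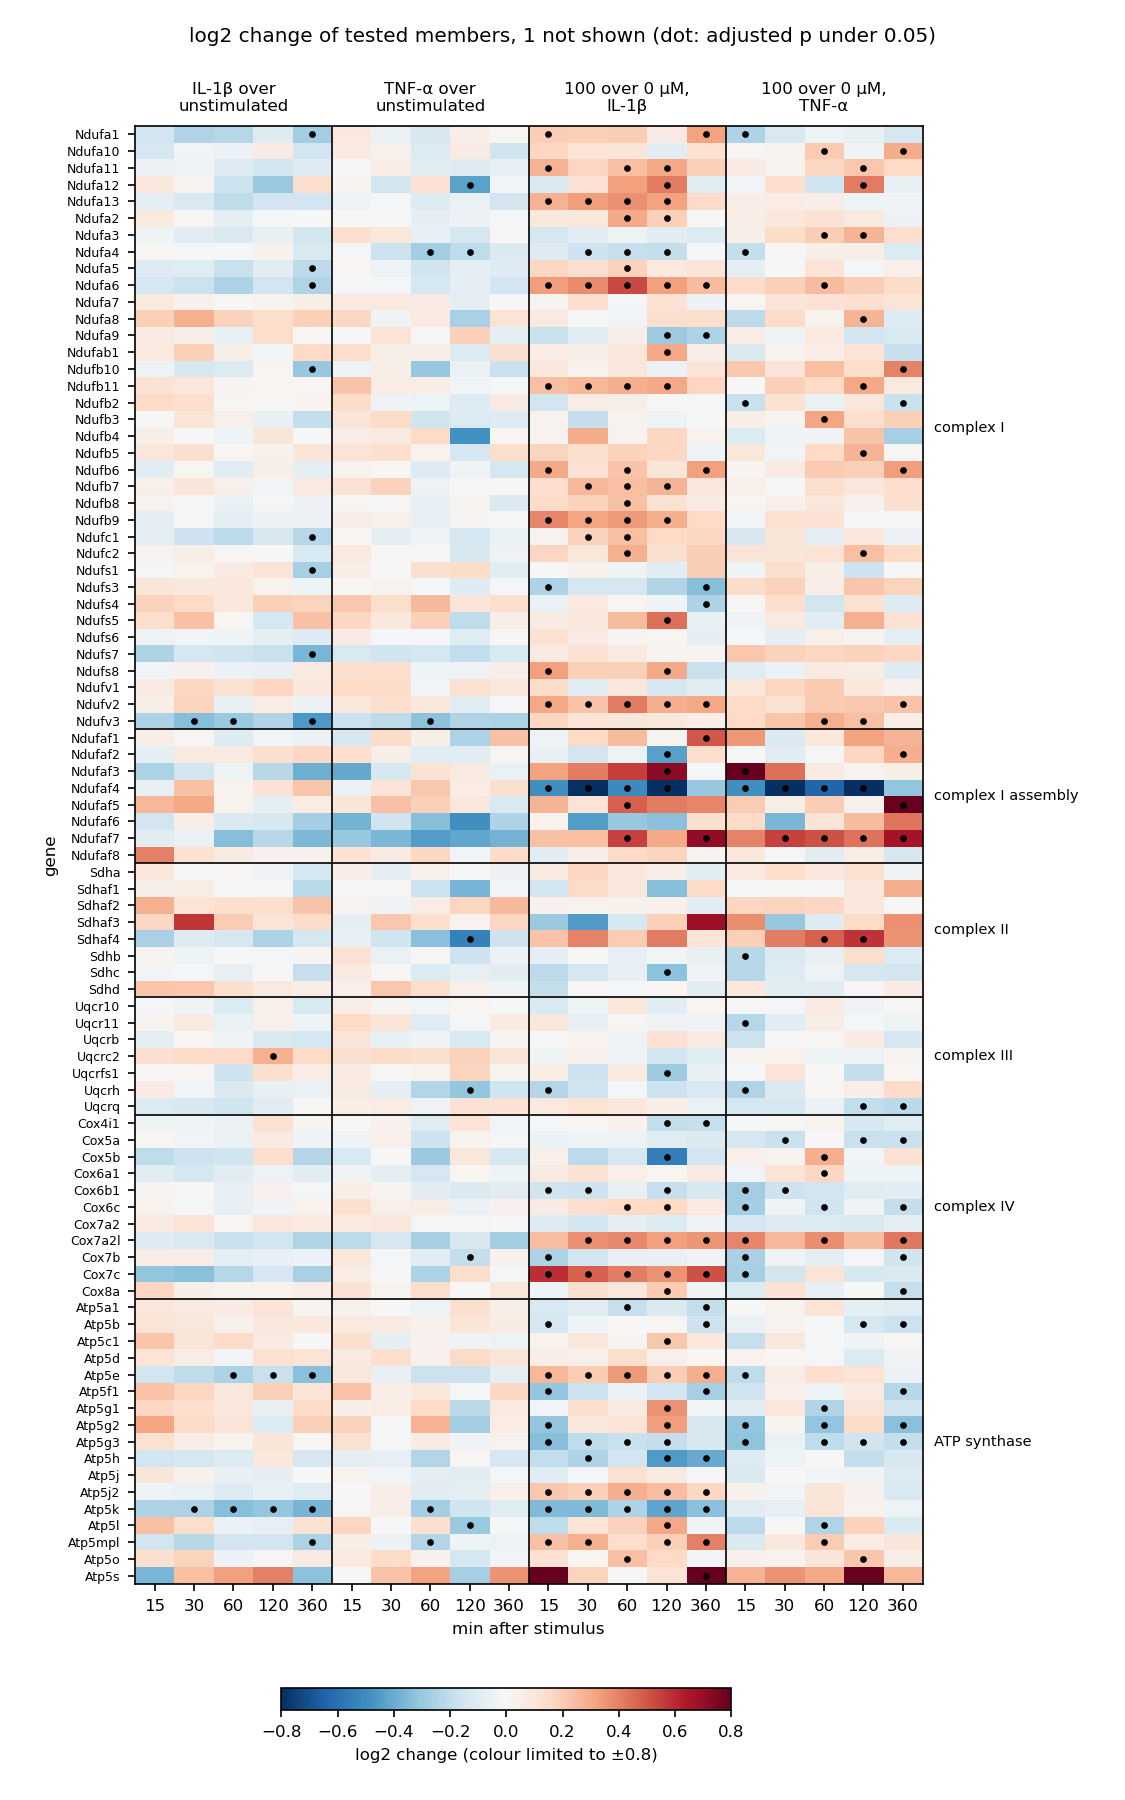
Log2 change of the tested members (rows, by role, with 1 member not shown) at each time in min (columns) for each stimulus over unstimulated cells (left blocks) and for 100 µM over 0 µM SC-514 (right blocks), with colour limited to 0.8 in either direction and dots for an adjusted p under 0.05. In the 10 columns of SC-514, Ndufaf4 has negative and Cox7a2l and Ndufaf7 have positive values, and Cox7c and Atp5e differ in sign between the labels at 15 min.

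Complex I subunits were called higher far more often than lower, with most of the higher calls under IL-1β. Of 370 results for 37 subunits over the 10 comparisons, 64 were higher and 12 lower, or 17.3% and 3.24%, against 10.8% and 14.0% for all genes. The counts were 134 and 4 with RLE factors that include the shallow libraries, 33 and 1 with DESeq2, and 42 to 56 higher and 2 to 7 lower when libraries of 1 number were left out, with 42 and 7 without number 2 and 52 and 2 without number 3. By comparison, 14 subunits were higher and 1 lower for IL-1β at 60 min, 12 and 2 for IL-1β at 120 min, 8 and 0 for TNF-α at 120 min, but 0 and 3 for TNF-α at 15 min.

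Ndufa6, an accessory subunit of the LYR family in the matrix arm, had, for IL-1β at 60 min, 376, 381, 401 and 419 CPM at 100 µM, against 251, 279, 276 and 286 CPM at 0 µM. The groups did not overlap (log2 change 0.53 ± 0.09 (SE), edgeR adjusted p = 1.77e-07). It was higher at all 5 times for IL-1β, with log2 changes of 0.33, 0.38, 0.53, 0.33 and 0.25, and for TNF-α at 60 min (0.25), where the groups overlapped. Ndufv2, an iron-sulfur subunit of the NADH-oxidising module, had 176, 203, 236 and 217 CPM at 100 µM, against 144, 159, 153 and 164 CPM at 0 µM, with no overlap (log2 change 0.42 ± 0.09 (SE), edgeR adjusted p = 4.38e-05). Ndufv2 was higher at all 5 times for IL-1β (0.31, 0.23, 0.42, 0.29 and 0.31 in log2) and at 360 min for TNF-α (0.23).

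Ndufb9, another LYR accessory subunit, had, for IL-1β at 15 min, 418, 449.5, 433 and 429.9 CPM at 100 µM, against 338, 310.1, 341 and 329 CPM at 0 µM, without overlap (log2 change 0.39 ± 0.07 (SE), edgeR adjusted p = 1.07e-06). It was called at the 4 times up to 120 min, as was Ndufa13, also known as GRIM-19, which spans the membrane at the foot of the matrix arm. Ndufa13 had, for IL-1β at 60 min, 716, 734, 748 and 777 CPM at 100 µM, against 539, 566, 590.2 and 616 CPM at 0 µM, again without overlap (log2 change 0.36 ± 0.07 (SE), edgeR adjusted p = 1.98e-05). Neither was called for TNF-α at any time. Ndufb11, a membrane arm subunit, was higher at the same 4 times for IL-1β (log2 0.24 to 0.31) and for TNF-α at 120 min, where it had 219, 227, 217 and 231 CPM at 100 µM, against 181, 193, 178 and 169 CPM at 0 µM.

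For TNF-α the called subunits were in part others. Ndufb10, which carries disulfides on the intermembrane side, had, at 360 min, 216, 237, 234 and 229 CPM at 100 µM, against 167, 154, 202 and 175 CPM at 0 µM, without overlap (log2 change 0.39 ± 0.09 (SE), edgeR adjusted p = 4.51e-04), and Ndufb6 rose by 0.34 there. Ndufv3 rose by 0.28 at 60 min for TNF-α. Ndufa3, a membrane arm subunit, rose by 0.19 at 60 min and 0.27 at 120 min for TNF-α. Ndufs1 was not called at any time, with log2 changes of 0.00, 0.04, -0.04, -0.08 and 0.20 for IL-1β and -0.03, 0.14, 0.05, -0.16 and 0.00 for TNF-α. Ndufb8 was called once, for IL-1β at 60 min (0.23). Among the few lower results, Ndufs3, a core subunit of the matrix arm, had, for IL-1β at 360 min, 67.0, 71.1, 90.8 and 74.8 CPM at 100 µM, against 97.0, 99.0, 98.7 and 90.3 CPM at 0 µM, where the highest 100 µM library passed the lowest 0 µM one (log2 change -0.34 ± 0.10 (SE), edgeR adjusted p = 0.00601). Ndufa4 fell by 0.17, 0.19 and 0.19 in log2 for IL-1β at 30, 60 and 120 min and by 0.19 for TNF-α at 15 min. These are 4 of the 12 lower results of complex I, where Ndufa4 was placed by its symbol although it copurifies with complex IV too.

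Among the 8 complex I assembly factors 12 of 80 results were higher and 9 lower, or 15.0% and 11.3%, near the 10.8% and 14.0% of all gene results, and 8 of the 9 lower results were those of Ndufaf4 and the other that of Ndufaf2. Ndufaf4, which with Ndufaf3 helps to assemble the ubiquinone-binding module, had, for IL-1β at 30 min, 40.2, 41.2, 54.4 and 39.1 CPM at 100 µM, against 77.5, 84.0, 79.7 and 82.1 CPM at 0 µM. All 100 µM libraries were below all 0 µM libraries (log2 change -0.89 ± 0.14 (SE), edgeR adjusted p = 1.08e-07). For TNF-α at 120 min it had 46.3, 26.4, 42.1 and 47.4 CPM at 100 µM, against 68.2, 71.6, 63.1 and 83.8 CPM at 0 µM, again without overlap (log2 change -0.81 ± 0.14 (SE), edgeR adjusted p = 2.61e-07). Unstimulated cells had 62.8, 63.1, 75.8 and 73.4 CPM, all below the 0 µM libraries labelled IL-1β at 30 min, and 62.8 to 75.8 CPM overlaps with the range of those labelled TNF-α at 120 min.

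The fall of Ndufaf4 recurred at each of the earlier times and was smaller at the last one. The log2 changes at 15, 30, 60, 120 and 360 min were -0.49, -0.89, -0.51, -0.81 and -0.30 for IL-1β and -0.49, -0.81, -0.63, -0.81 and -0.32 for TNF-α, called at every time but 360 min, where the adjusted p was 0.0702 and 0.0502. The groups overlapped for IL-1β at 15 min and in both labels at 360 min. At 30 min the means at 0, 25, 50 and 100 µM were 74.1 ± 15.4, 56.3 ± 7.80, 44.4 ± 3.12 and 42.5 ± 7.68 CPM for TNF-α (SD, n = 4 each). The changes at 25 and 50 µM over the 5 times were called in both labels, with mean log2 changes of -0.34 and -0.41 for IL-1β and -0.31 and -0.52 for TNF-α. Ndufaf4 has no near-identical copy or overlapping gene in the annotation.

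Ndufaf7, a methyltransferase that acts during complex I assembly, went the other way. For IL-1β at 360 min it had 48.7, 48.3, 33.6 and 45.4 CPM at 100 µM, against 27.4, 23.9, 26.8 and 29.3 CPM at 0 µM, and for TNF-α at 360 min 41.7, 50.7, 40.1 and 35.8 CPM at 100 µM, against 23.4, 22.2, 34.0 and 26.7 CPM at 0 µM. In both labels all 100 µM libraries were above all 0 µM libraries (log2 0.71 ± 0.17 and 0.67 ± 0.16, SE). It was called in 6 of 10 comparisons and its log2 change was positive in all 10, from 0.24 to 0.71. Unstimulated cells had 32.5, 38.0, 42.1 and 25.8 CPM, a range that overlapped both concentrations. Ndufaf5, which hydroxylates Ndufs7, had, for TNF-α at 360 min, 31.6, 32.6, 29.4 and 33.5 CPM at 100 µM, against 16.9, 20.1, 21.4 and 15.3 CPM at 0 µM, without overlap (log2 change 0.79 ± 0.19 (SE), edgeR adjusted p = 3.78e-04). Ndufaf3, the partner of Ndufaf4, had, for TNF-α at 15 min, 16.0, 13.8, 17.7 and 16.9 CPM at 100 µM, against 11.2, 4.36, 9.81 and 11.3 CPM at 0 µM, without overlap but at few counts (log2 change 0.81 ± 0.25 (SE), edgeR adjusted p = 0.0106). Ndufaf1, which acts on the membrane arm, rose by 0.49 for IL-1β at 360 min and was called nowhere else.

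**Figure D4:**
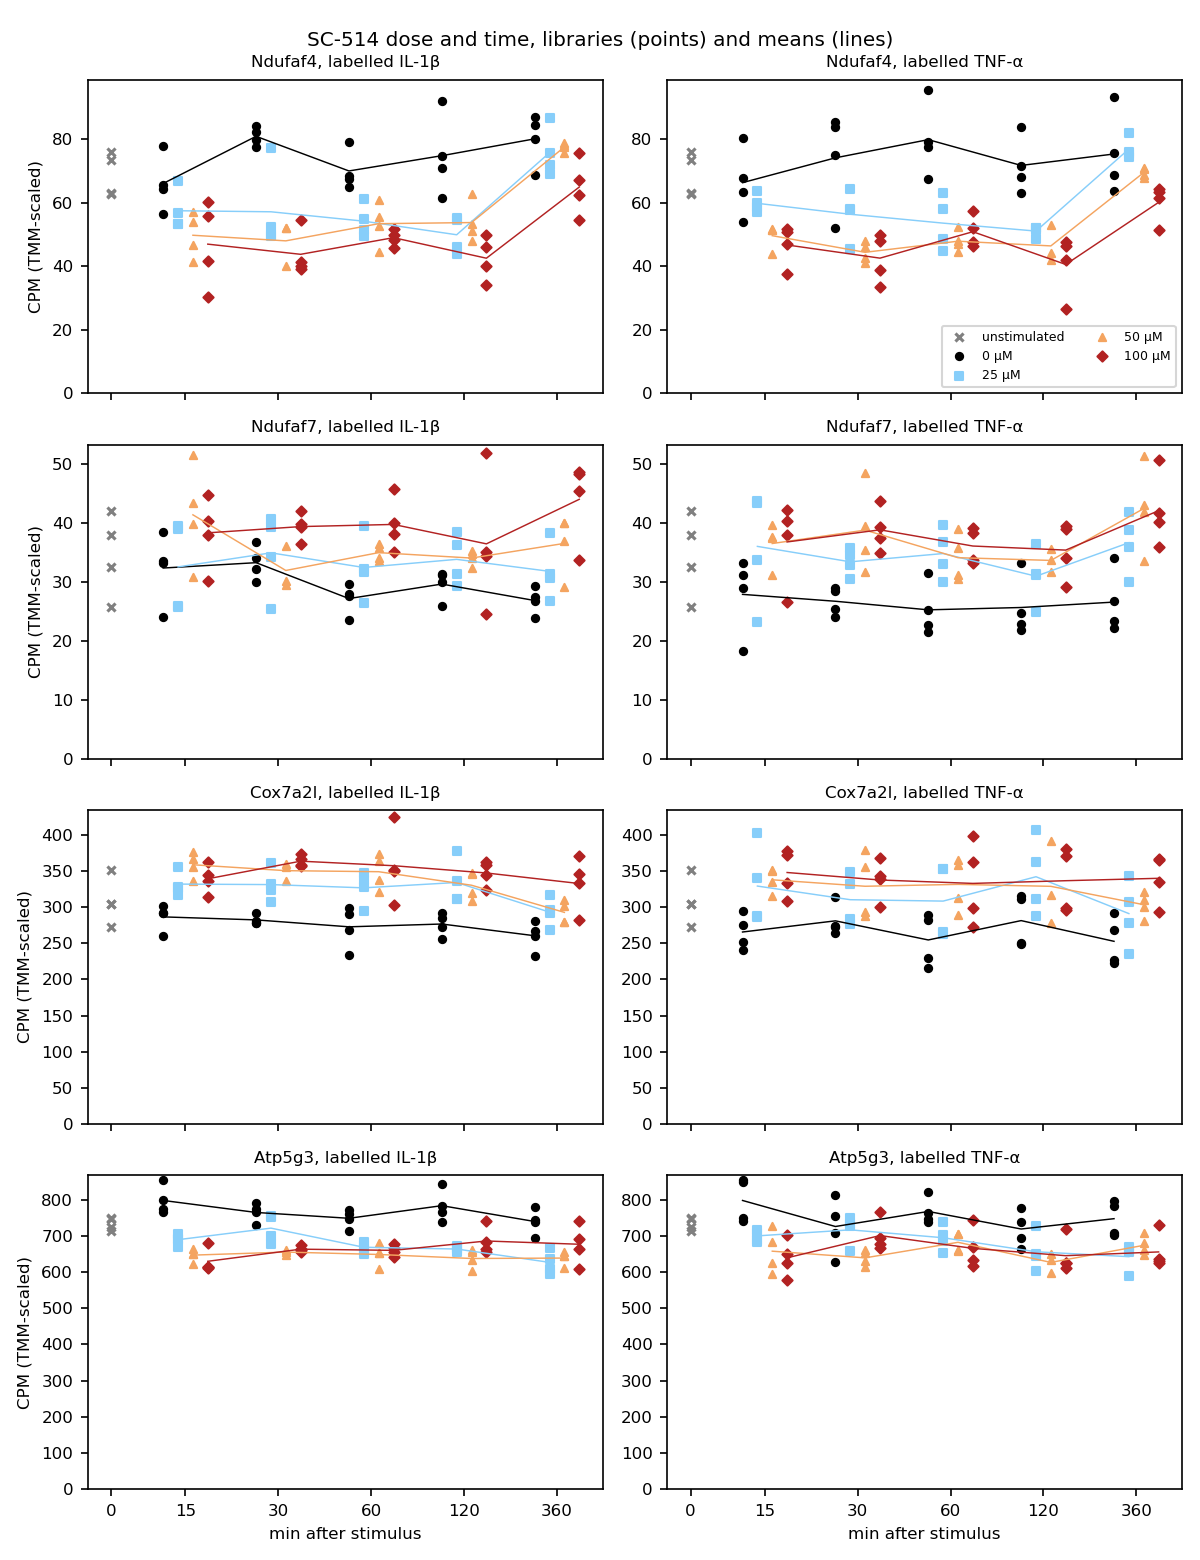
CPM of Ndufaf4, Ndufaf7, Cox7a2l and Atp5g3 against time (min, evenly spaced) for each SC-514 concentration, by stimulus label, with points for libraries and lines for means, and the 2 shallow libraries left out. The mean of Ndufaf4 and of Atp5g3 is lower, and that of Ndufaf7 and of Cox7a2l higher, at 100 µM than at 0 µM under both labels at all 5 times.

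Complexes II and III were called less often than all genes. Of 80 complex II results 2 were higher and 2 lower, and of 70 complex III results 0 were higher and 6 lower, which is 2.50% and 2.50% for complex II and 0% and 8.57% for complex III, against 10.8% and 14.0% of all gene results. For complex III the RLE factors that moved all genes upward gave 5 higher and 2 lower, and those without the shallow libraries 0 and 7. Sdhaf4, which loads the flavoprotein Sdha into complex II, had, for TNF-α at 120 min, 25.2, 34.2, 35.4 and 35.7 CPM at 100 µM, against 23.2, 14.5, 27.3 and 21.9 CPM at 0 µM, where 1 library of each group fell in the other's range (log2 change 0.58 ± 0.17 (SE), edgeR adjusted p = 0.00641). Sdhc, a membrane anchor, had, for IL-1β at 120 min, 155, 137, 156 and 172 CPM at 100 µM, against 182, 186, 219 and 192 CPM at 0 µM, without overlap (log2 change -0.33 ± 0.10 (SE), edgeR adjusted p = 0.00591). Sdha was not called at any time and had log2 changes of 0.07, 0.17, 0.08, 0.06 and -0.09 for IL-1β and 0.08, 0.14, 0.08, 0.12 and -0.03 for TNF-α. Sdhb was called once, for TNF-α at 15 min (-0.22). Uqcrq, a small accessory subunit of complex III, had, for TNF-α at 360 min, 834, 771, 816 and 833 CPM at 100 µM, against 955, 927, 986 and 918 CPM at 0 µM, without overlap (log2 change -0.22 ± 0.05 (SE), edgeR adjusted p = 9.14e-04). It fell there and, by 0.19 in log2, at 120 min. Uqcrfs1 had, for IL-1β at 120 min, 134, 166, 182 and 147 CPM at 100 µM, against 177, 184, 210.4 and 196 CPM at 0 µM, where the highest 100 µM library passed the lowest 0 µM one (log2 change -0.29 ± 0.09 (SE), edgeR adjusted p = 0.00562). The hinge protein Uqcrh had log2 changes of -0.23 and -0.24 at 15 min for IL-1β and TNF-α.

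Complex IV was mixed, with 17 of 110 results higher and 19 lower, or 15.5% and 17.3%, near the 10.8% and 14.0% of all gene results. The counts were 29 and 7 with RLE factors that include the shallow libraries. Cox7a2l, also known as SCAF1, which ties complexes III and IV into supercomplexes, was higher in 7 of 10 comparisons and positive in all 10. Placed in complex IV by its symbol, it gave 7 of the 17 higher results. For IL-1β at 30 min it had 357, 359, 373 and 367 CPM at 100 µM, against 281, 292, 279 and 278 CPM at 0 µM. All 100 µM libraries were above all 0 µM libraries (log2 change 0.36 ± 0.10 (SE), edgeR adjusted p = 0.00587). For TNF-α at 120 min it had 371, 381, 299 and 296 CPM at 100 µM, against 312, 316, 249.8 and 249 CPM at 0 µM, and this change was not called (log2 change 0.25 ± 0.10 (SE), edgeR adjusted p = 0.0579). There the libraries numbered 1 and 2 were above those numbered 3 and 4 at both concentrations.

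Cox6b1, a subunit on the intermembrane side near the cytochrome c site, was lower in 5 of 10 comparisons and had, for TNF-α at 15 min, 412, 353, 363 and 386 CPM at 100 µM, against 447, 469.5, 487 and 437 CPM at 0 µM. The groups did not overlap (log2 change -0.28 ± 0.06 (SE), edgeR adjusted p = 8.16e-05). Cox7b, a membrane-spanning subunit, fell by 0.25 for IL-1β and 0.26 for TNF-α at 15 min. Cox5b, a zinc-binding matrix subunit, had, for IL-1β at 120 min, 215, 254, 237 and 291 CPM at 100 µM, against 327, 349.7, 424 and 358 CPM at 0 µM, without overlap (log2 change -0.55 ± 0.11 (SE), edgeR adjusted p = 1.56e-05), but rose by 0.29 for TNF-α at 60 min. Cox5a, its neighbour, fell by 0.18 for TNF-α at 30, 120 and 360 min. Cox4i1 fell by 0.19 and 0.18 for IL-1β at 120 and 360 min. Cox8a, the common form of subunit 8, had, for IL-1β at 120 min, 944, 975, 1024 and 982 CPM at 100 µM, against 826, 847, 891 and 831 CPM at 0 µM, without overlap, and fell by 0.18 for TNF-α at 360 min. Cox7a2 was not called at any time, with log2 changes of -0.11, -0.15, -0.08, -0.11 and -0.04 for IL-1β and -0.14, -0.10, -0.11, -0.12 and -0.07 for TNF-α.

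The ATP synthase had 22 of 170 results higher and 32 lower, or 12.9% and 18.8%, also near the 10.8% and 14.0% of all gene results, and 36 and 15 with RLE factors that include the shallow libraries. Atp5g3, 1 of 3 genes for the membrane ring subunit c, was lower in 8 of 10 comparisons. For IL-1β at 15 min it had 611, 613, 679.7 and 615 CPM at 100 µM, against 765, 774, 853 and 799 CPM at 0 µM, and for TNF-α at 15 min 626, 649.9, 579 and 703 CPM at 100 µM, against 739.9, 749, 849 and 854 CPM at 0 µM. Neither pair of groups overlapped (log2 -0.34 ± 0.06 and -0.32 ± 0.06, SE). The other calls were between -0.16 and -0.21 in log2, and the changes for IL-1β at 360 min and TNF-α at 30 min were -0.13 and -0.05 and not called. The other c subunit genes, which encode the same mature protein, went both ways. Atp5g1 rose by 0.36 for IL-1β at 120 min and fell by 0.24 for TNF-α at 60 min. Atp5g2 rose by 0.33 for IL-1β at 120 min and fell by 0.31 for IL-1β at 15 min and by 0.31, 0.32 and 0.34 for TNF-α at 15, 60 and 360 min.

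The catalytic subunits moved little, and downward where called. Atp5b, the beta subunit, had, for TNF-α at 360 min, 1019, 1019, 1036 and 1072 CPM at 100 µM, against 1126, 1149, 1189 and 1204 CPM at 0 µM, without overlap (log2 change -0.17 ± 0.04 (SE), edgeR adjusted p = 0.00141), and fell in 4 of 10 comparisons by 0.13 to 0.17. Atp5a1, the alpha subunit, fell by 0.18 and 0.19 for IL-1β at 60 and 360 min. Of the peripheral stalk, Atp5h had, for IL-1β at 120 min, 174, 177, 183 and 195 CPM at 100 µM, against 233, 245, 275 and 245 CPM at 0 µM, without overlap (log2 change -0.45 ± 0.09 (SE), edgeR adjusted p = 2.27e-05), and Atp5f1 fell by 0.31 for IL-1β at 15 min, while Atp5o rose by 0.22 for TNF-α at 120 min. Of the small membrane subunits, Atp5mpl had, for IL-1β at 360 min, 310.5, 303, 295 and 369 CPM at 100 µM, against 254, 233, 218 and 262 CPM at 0 µM, without overlap (log2 change 0.40 ± 0.07 (SE), edgeR adjusted p = 1.47e-06). Atp5j2, subunit f, rose at all 5 times for IL-1β (0.22, 0.19, 0.29, 0.25 and 0.17 in log2) and at none for TNF-α. Atp5s, coupling factor B, was among the least counted members and for IL-1β at 360 min had 5.22, 6.14, 8.41 and 5.68 CPM at 100 µM, against 2.49, 2.47, 4.18 and 1.67 CPM at 0 µM, values of a few counts a library (log2 change 1.21 ± 0.48 (SE), edgeR adjusted p = 0.0428). Of the members 18 have a near-identical copy at another locus, and for 12 such a copy is counted as a row of its own. Atp5h and Atp5g1 have 2 such rows each, and Atp5l has 7. Atp5g2, Atp5o, Cox5a and Ndufb11 have 1 each. The counts of all these genes may be split between the copies.

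At the lower concentrations each test asked whether a gene changed over the 5 times together. In libraries labelled IL-1β 23 members changed at 25 µM and 44 at 50 µM, against 28.7% and 40.0% of all genes, and in libraries labelled TNF-α 17 and 34, against 23.8% and 35.9%. The members were 26.1%, 50.0%, 19.3% and 38.6% of those tested. Of the TNF-α calls 8 were higher and 9 lower by mean change at 25 µM and 18 and 16 at 50 µM, but 13 and 7 and 37 and 11 with RLE factors that include the shallow libraries. Atp5g3 had mean log2 changes of -0.19 at 25 µM and -0.25 at 50 µM for IL-1β, and Cox6b1 of -0.20 and -0.23 for TNF-α, and both were called in all 4 tests. Ndufb9 rose by 0.14 and 0.23 and Ndufv2 by 0.19 and 0.25 for IL-1β. Ndufaf3 rose by 0.56 at both concentrations for IL-1β, and Ndufb11 by 0.14 at 25 µM. At 50 µM for IL-1β Atp5o and Ndufa5 rose by 0.15 and 0.21. For TNF-α Ndufaf7 rose by 0.38 and 0.48, Ndufa3 by 0.15 and 0.18, and Ndufs3 by 0.25 and 0.26, while Ndufa10 rose by 0.13 and Uqcr10 fell by 0.11 at 25 µM. Uqcrh fell by 0.20 at 25 µM for IL-1β, and Cox7b by 0.16 at 50 µM for TNF-α. Atp5k had mean changes of 0.14 and 0.16 for TNF-α and -0.21 at 50 µM for IL-1β, opposite in sign. With no inhibitor 9 members differed between IL-1β and TNF-α over the 5 times, against 9.56% of all genes, and 7 of the 9 were lower in libraries labelled IL-1β. The mean log2 differences were -0.24 for Cox7c, -0.21 for Atp5k, -0.16 for Uqcrq and -0.15 for Atp5e, while Ndufa8, a subunit on the intermembrane side of complex I, and Ndufa4 were higher by 0.19 and 0.14.

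The effect of 100 µM SC-514 itself differed between the labels for 14 members by an F test of the 5 differences. These were 15.9% of those tested, against 4.68% of all genes, but members and all genes were not matched for count level. Among those called, the median absolute mean log2 difference was 0.26 for members and 0.31 for all genes. Cox7c, an accessory subunit of complex IV, had, for IL-1β at 15 min, 335, 357, 328 and 351 CPM at 100 µM, against 216, 219, 252 and 222 CPM at 0 µM. For TNF-α at 15 min it had 258, 248, 229 and 246 CPM at 100 µM, against 290.0, 283, 288 and 318 CPM at 0 µM. All 100 µM libraries were above all 0 µM libraries under IL-1β and below them under TNF-α. The log2 changes of Cox7c at the 5 times were 0.59, 0.48, 0.41, 0.36 and 0.51 for IL-1β, all called, and -0.26, -0.15, 0.10, -0.13 and -0.12 for TNF-α, and the mean difference was 0.58 (adjusted p = 3.11e-11, edgeR). The unstimulated libraries had 271, 308, 275 and 277 CPM, all above the 0 µM and below the 100 µM libraries labelled IL-1β at 15 min.

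Atp5k showed the opposite pattern, and for IL-1β at 120 min had 296, 288, 278 and 281 CPM at 100 µM, against 364, 365, 400.1 and 403 CPM at 0 µM. For TNF-α at that time it had 439, 456, 418 and 414 CPM at 100 µM, against 408, 409, 449 and 428 CPM at 0 µM. The groups lay apart under IL-1β and overlapped under TNF-α. Its log2 changes were -0.35, -0.35, -0.25, -0.42 and -0.33 for IL-1β, all called, and -0.09, -0.06, 0.10, 0.03 and -0.04 for TNF-α, none called, with a mean difference of -0.33. The unstimulated libraries had 414, 543, 440.4 and 499.9 CPM, all above the 100 µM libraries labelled IL-1β. Atp5e had, for IL-1β at 60 min, 511, 473, 521 and 529 CPM at 100 µM, against 382, 397, 403 and 427 CPM at 0 µM. For TNF-α at 60 min it had 499, 494, 451 and 432 CPM at 100 µM, against 416, 432, 445 and 414 CPM at 0 µM, with the highest 0 µM library inside the 100 µM range. It rose at all 5 times for IL-1β without overlap and fell for TNF-α at 15 min (-0.20), with a mean difference of 0.25.

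**Figure D5:**
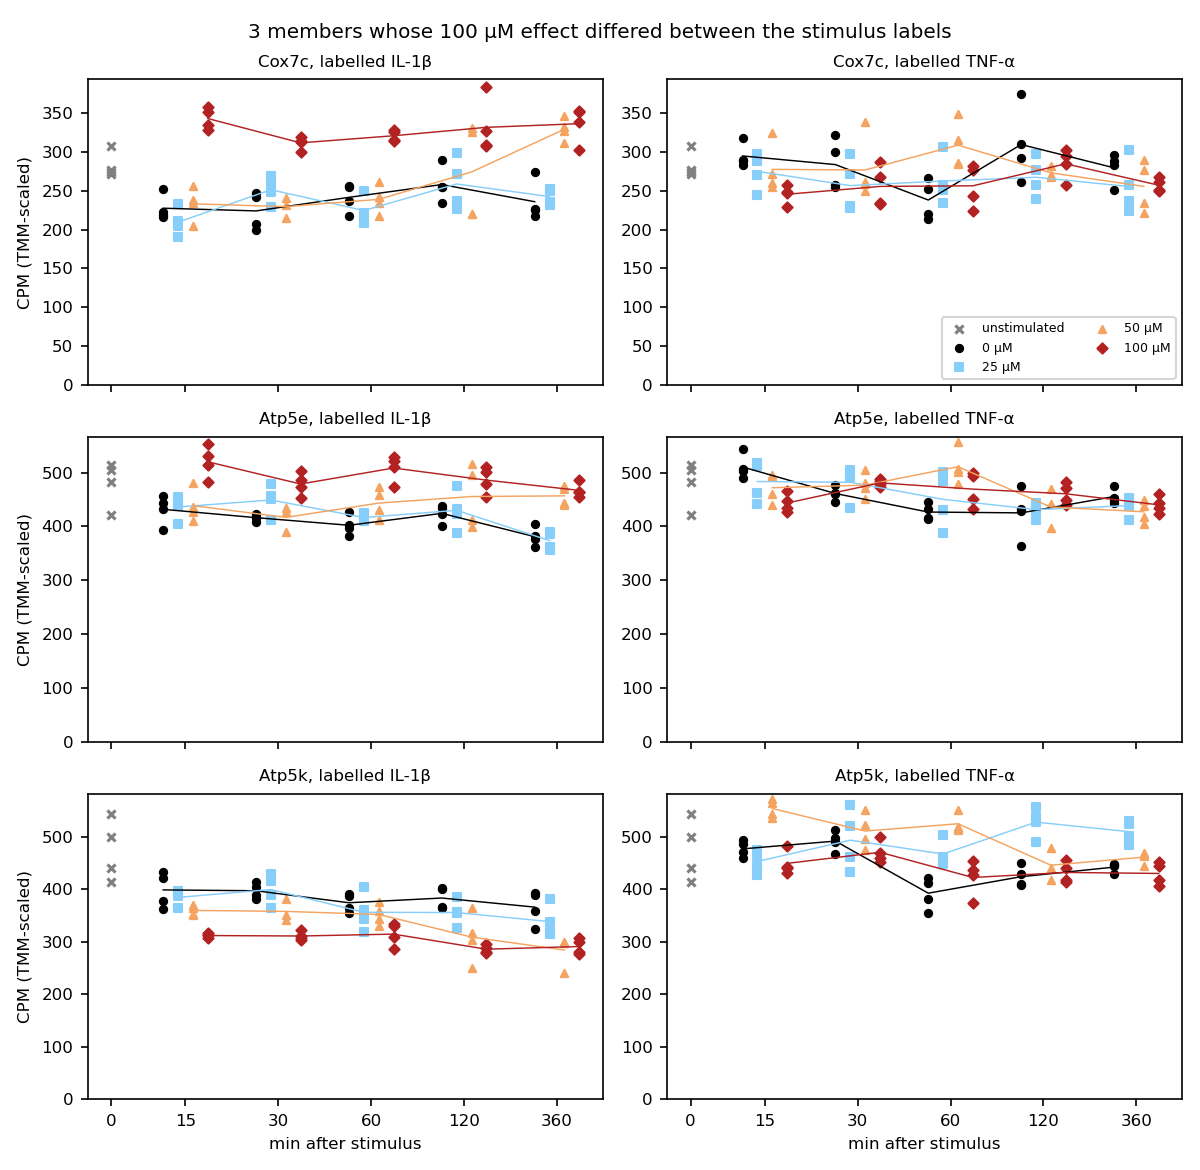
CPM of Cox7c, Atp5e and Atp5k against time (min, evenly spaced) for each SC-514 concentration, by stimulus label, with points for libraries and lines for means, and the 2 shallow libraries left out. Under IL-1β Cox7c and Atp5e lie higher and Atp5k lower at 100 µM than at 0 µM at all 5 times, and under TNF-α 1 of the 5 times was called for Cox7c and for Atp5e and none for Atp5k.

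Other members of this kind were Cox6c, Ndufa1, Ndufs3, Ndufa3 and Cox5b. Cox6c, an accessory subunit of complex IV, rose by 0.16 and 0.16 for IL-1β at 60 and 120 min and fell for TNF-α by 0.27, 0.16 and 0.19 at 15, 60 and 360 min. For TNF-α at 15 min it had 504, 495, 494 and 543 CPM at 100 µM, against 611, 614, 602 and 625 CPM at 0 µM, without overlap. Ndufa1, a small membrane-arm subunit, had, for TNF-α at 15 min, 369.7, 350.3, 337 and 316 CPM at 100 µM, against 414, 429, 392 and 397 CPM at 0 µM, without overlap (log2 change -0.25 ± 0.08 (SE), edgeR adjusted p = 0.0118), and rose by 0.20 for IL-1β. The mean differences were 0.25 for Cox6c, 0.32 for Ndufa1, -0.37 for Ndufs3, -0.25 for Ndufa3 and -0.29 for Cox5b. Short transcripts were frequent among these members. Below 600 bases of median annotated length, a limit chosen after the values were seen, 9 of 28 members differed in the 100 µM effect, against 5 of 60 longer ones. Of all genes 13.4% of the shorter and 4.27% of the longer differed. The comparison of labels without inhibitor called 8 of 28 shorter and 1 of 60 longer members, with 13.4% and 9.50% of all genes. It uses the same 0 µM libraries as the difference in the 100 µM effect, so the length splits are not independent. Cox7c has 4 near-identical copies elsewhere in the genome, 3 of them counted as rows of their own, and Atp5k, Cox6c and Ndufs3 have 1 each, so their counts may be split, and the part of transcript length and of such copies in these differences was not tested.

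Genes around the respiratory chain were counted in the same 10 comparisons of 100 µM with 0 µM. Over these 10.8% of all gene results were higher and 14.0% lower. In single comparisons 7.12% to 14.3% of all genes were higher and 10.8% to 16.2% lower. No list was tested as a whole against all genes. Of 13 TCA cycle genes 0 to 1 were higher and 1 to 4 lower in each. Mdh2, the mitochondrial malate dehydrogenase, was lower in 9 of 10 comparisons, with a log2 change of -0.31 for TNF-α at 360 min, and Cs, citrate synthase, in 6 of 10. Of 28 other assembly factors and electron carriers tested, 2 to 5 were higher and 1 to 4 lower. Cycs, which encodes cytochrome c, and Cox17, a copper chaperone for complex IV, were lower in 6 of 10 each (-0.60 and -0.41 for IL-1β at 15 min). Cox20 and Cox14, which help to assemble complex IV, were higher in 6 of 10 each. Of 11 regulators tested, Pprc1, a coactivator of NRF-1, was lower in 7 of 10, with log2 changes of -0.51 for IL-1β and -0.50 for TNF-α at 60 min, and at most 1 regulator moved in each direction in any comparison. The named genes were chosen after their values were seen. Of the 13 mitochondrially encoded subunits, 7 were higher and 1 lower for IL-1β after 120 min and 5 higher and 0 lower after 360 min, while at the other times and in TNF-α 0 to 1 moved in each direction. Without inhibitor 0 to 2 of the 13 TCA cycle genes were higher and 0 lower, 0 to 1 of the regulators were higher and 0 lower, and 0 to 1 of the other assembly factors and carriers moved in each direction. Of all genes 0.0836% to 12.3% were higher and 0.0464% to 9.40% lower in these 10 comparisons. Of the mitochondrially encoded subunits 0 were higher and 3 lower for IL-1β at 360 min, with a median log2 change of -0.25 over the 13, and 0 to 1 moved in each direction in the other 9 comparisons.

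Facts of the libraries moved with some of these results. Library totals differed with concentration, in opposite directions by label. For IL-1β at 30, 120 and 360 min all 100 µM libraries had lower totals than all 0 µM libraries. At 120 min these were 928906 to 1077984 against 1417954 to 1531296 counts. For TNF-α at 15, 120 and 360 min all 100 µM libraries had higher totals. At 360 min these were 1846457 to 2020867 against 1030538 to 1275752 counts. At the other times the totals overlapped. The share of mitochondrially encoded counts had a median of 0.682% at 100 µM and 0.579% at 0 µM in libraries labelled IL-1β, and 0.667% at 100 µM and 0.638% at 0 µM in libraries labelled TNF-α. In libraries labelled IL-1β at 100 µM, library 1 detected 14634 genes at 120 min, against 13198 to 13350 in the other 3, and 15303 genes at 360 min, against 13170 to 13529. Of the 9 fibroblast markers 8 were lower for TNF-α with 100 µM at 360 min than with 0 µM, and 8 were lower for IL-1β at 360 min than in unstimulated cells. With 100 µM over 0 µM, 0 to 5 of them were higher and 0 to 8 lower in each comparison. Of 3 leukocyte markers tested 1 was lower in all 10 comparisons, and the 1 adipocyte marker tested was higher in 8 of 10. For IL-1β at 360 min against unstimulated cells, where 11 members were lower, the adipocyte marker Lpl was lower (log2 -0.56). The 1 endothelial marker tested, Pecam1, was lower too (-1.18), and 1 leukocyte marker, Cd14, was higher (0.69). Pecam1 was not particular to that time. Its log2 changes were -1.42 to -0.68 over the 10 stimulus comparisons, and it was called for IL-1β at 120 and 360 min. The part of these in the results was not tested, and in bulk RNA fewer cells of a kind and less RNA per cell cannot be told apart.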

How the data were processed

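Polyadenylated RNA of 3T3 cells was sequenced as 3' tags, and the authors deposited 1 table of raw counts, with 22070 genes and 164 libraries. Bowtie2 and the builds GRCm38 and mm10 stand in the submitters' processing notes, and the counting tool is not given in the sources used here. The 656 sample records map to the 164 columns, 4 records to a column. Gene IDs were given symbols through GENCODE M21, which matched 21858 of them. There were 7 non-coding rows with the same prefixes, which were left out.

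The 96 members and all gene lists were chosen with earlier results of these data known. Genes with enough counts by the edgeR filter, 10766 in all, were fitted together over all 41 groups with edgeR 4.0.16 in R 4.3.3 (TMM factors, quasi-likelihood tests, Benjamini-Hochberg adjustment over all 10766 genes, threshold 0.05). CPM values are the deposited counts divided by TMM-scaled library sizes. The floor of 3 counts covers counting error only, while SDs and SEs take in the spread among libraries. The procedure was tested on simulated data. Genes were named by a rule: in each comparison, up to 4 members in each direction with the smallest p among those called, and a fixed set of subunits for each complex, besides those said to be chosen after their values were seen. Comparisons were also run with DESeq2 1.42.0, RLE factors, no filter, without the 2 shallow libraries, without each library number and with the library number as a block. Pairing by library number was weak and was left out of the main fit. Residuals, centred within each group, correlated at a mean of 0.0746 between libraries of the same number. The mean of -0.0248 between others follows from the centring and is no separate contrast. Of 80 pairs 12 lay over 0.1, and 0 of 20 comparisons had all 4 pairs over 0.1. This cannot exclude that libraries of the same number shared a source. No 2 libraries of a group were identical in 246 pairs. Near-identical copies were sought with blastn 2.17.0 over the last 300 bases of transcripts, at 95% identity or more over at least 100 bases. Results for 1 member are not reported here.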

Additional observations from a re-analysis of the deposited data

Results flagged for a closer look

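The summed share of members in 1 library stood apart from the other 3 of its group in 2 of 41 groups, by a gap above Dixon's 95% critical value. Library 4 labelled IL-1β with 25 µM at 120 min had 2.27%, and library 1 labelled TNF-α with 100 µM at 15 min had 2.43%. Chance gives such a gap in about 1 in 20 groups.

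The effect of 100 µM SC-514 differed between the labels for 14 members by an F test over the 5 times. At the time with the widest gap, the log2 change for IL-1β minus that for TNF-α was 0.86 for Cox7c, 0.47 for Atp5e, 0.46 for Ndufa1, 0.42 for Ndufb9, 0.36 for Ndufa13, 0.35 for Atp5mpl, 0.33 for Cox6c, 0.29 for Atp5j2 and 0.25 for Uqcrq. It was -0.53 for Cox5b, -0.52 for Ndufs3, -0.45 for Atp5k, -0.36 for Ndufa3 and -0.24 for Ndufa4. The label and the set of libraries cannot be told apart in these differences.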

How the results depend on the processing

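No named member changed direction under any alternative run. Numbers below count members called, and the cause of each change was not tested. DESeq2 on 2 groups at a time called 1 for IL-1β at 15 min, 1 for IL-1β at 120 min, 2 for TNF-α at 60 min and 0 for TNF-α at 120 min against unstimulated cells. For 100 µM against 0 µM it called 9, 15, 22 and 10 for IL-1β at 30, 60, 120 and 360 min, and 8, 2, 4, 3 and 11 for TNF-α at 15, 30, 60, 120 and 360 min. RLE factors, which rest on the genes counted in every library (1525 with the shallow libraries and 10127 without), called 1, 6, 8, 6 and 24 for IL-1β at the 5 times and 12, 16 and 2 for TNF-α at 60, 120 and 360 min against unstimulated cells. Against unstimulated cells the RLE factors with the shallow libraries moved all genes downward. The median log2 change of all genes was -0.07 to -0.02, against -0.02 to 0.01 with TMM factors. The share of all genes called there with RLE factors was not counted. For 100 µM RLE factors called 36 for IL-1β at 15 min and 10, 31 and 26 for TNF-α at 30, 60 and 120 min. With no filter 1 was called for IL-1β at 15 min, 3 for TNF-α at 120 min and 1 at 360 min against unstimulated cells, and for 100 µM 9 for IL-1β at 30 min and 10, 10 and 9 for TNF-α at 15, 60 and 360 min, with 14 for IL-1β at 25 µM. The summed share was 2.40% of counts without mitochondrially encoded and ribosomal protein genes.

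Leaving out libraries of 1 number gave, against unstimulated cells, 0 to 0, 0 to 2, 0 to 4, 0 to 4 and 4 to 13 for IL-1β and 0 to 0, 0 to 0, 1 to 7, 1 to 6 and 0 to 1 for TNF-α at the 5 times. For 100 µM it gave 14 to 21, 11 to 15, 19 to 21, 21 to 31 and 13 to 18 for IL-1β and 9 to 14, 2 to 4, 4 to 13, 8 to 13 and 10 to 18 for TNF-α. At 25 and 50 µM it gave 13 to 18 and 32 to 39 for IL-1β and 9 to 16 and 23 to 35 for TNF-α, 7 to 9 between the labels and 10 to 14 for the difference in the 100 µM effect. Without the 2 shallow libraries, with RLE factors computed without them, or with the replicate block, no count of called members moved by over 1.5 times, and the replicate block gave 3 higher and 3 lower for TNF-α at 30 min. Of 140 named results, the call was lost in 37 without libraries numbered 2, in 23 without those numbered 3, in 22 without those numbered 4, in 9 without those numbered 1, in 21 with no filter, in 13 with RLE factors, in 2 without the shallow libraries and in 0 with the replicate block. DESeq2 lost 26 of 94. At these depths genes under the filter could not be tested.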
